A study of Mus musculus with 10 samples.

Results

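Interferon-stimulated genes are the genes that cells switch on after an interferon binds its receptor, and 35 of them were followed in the lungs of mice with and without Bpifb1, a gene for a secreted protein of the airway lining. The 35 were listed by symbol and found in the deposited table by their Ensembl gene identifiers through GENCODE M21. All 35 were among the 47333 genes of the table, and all 35 were also among the 18024 genes with enough counts to be tested. RNA was sequenced from the right middle lung lobe of 5 mice without a working Bpifb1 gene (KO) and 5 wild-type mice (WT). All 10 were C57BL/6J mice, 12 weeks old, naïve and untreated, and cages held both genotypes. By the labels, of the KO mice 1 was male and 4 were female, and of the WT mice 2 were male and 3 female. How the loss of Bpifb1 was made and how the litters were bred are not given in the sources used here. Each sample is described by the labels as a mouse of its own genotype and sex, and replicate numbers name the mice without pairing them.

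Type I interferons reach a receptor on nearly every cell type, and the receptor's kinases phosphorylate transcription factors such as STAT2. A complex that holds STAT2 and IRF9 binds the interferon-stimulated response element (ISRE) in promoters, while the response to interferon-gamma acts through another element, the gamma-activated sequence (GAS). The induced genes include sensors of viral RNA and DNA, the transcription factors of the pathway itself, and proteins that block viral entry, translation, replication or release. Many of them are also transcribed at a low level in uninfected tissue, and the lung at rest is such a tissue.

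The letters of the ISRE can be read in the promoters of many members, but not of all. The stretches below are shown because they hold more than 1 ISRE core in genes of 3 roles, and because 2 pairs of them are near copies. Promoter sequence came from RefSeq (build GRCm38.p6), which held a window of 250 bases before to 50 bases after the start site for 26 of the 35 members. No entry was found for Mx1, Mx2, Usp18, Zbp1, Parp14, Oas2, Ifi27, Rtp4 and Dhx58. Each line gives the 200 bases before the start site, 5′ to 3′ on the gene's own strand, with the ISRE cores in capitals (GAAA, any 2 bases, GAAA, or its reverse complement where the match lies on the opposite strand). Isg15 lies at chr4:156200819-156201018 (minus strand), Ifit1 at chr19:34640689-34640888 (plus), Ifit3 at chr19:34583329-34583528 (plus), Ifit3b at chr19:34607757-34607956 (plus), Oas1a at chr5:120907526-120907725 (minus) and Oas1g at chr5:120887614-120887813 (minus).
Isg15: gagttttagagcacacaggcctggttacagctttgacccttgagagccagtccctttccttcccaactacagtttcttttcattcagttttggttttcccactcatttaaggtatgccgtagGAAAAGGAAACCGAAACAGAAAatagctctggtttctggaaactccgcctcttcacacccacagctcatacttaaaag
Ifit1: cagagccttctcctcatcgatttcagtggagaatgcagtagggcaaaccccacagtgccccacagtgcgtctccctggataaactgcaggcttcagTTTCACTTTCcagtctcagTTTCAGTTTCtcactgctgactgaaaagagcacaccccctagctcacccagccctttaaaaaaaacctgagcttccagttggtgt
Ifit3: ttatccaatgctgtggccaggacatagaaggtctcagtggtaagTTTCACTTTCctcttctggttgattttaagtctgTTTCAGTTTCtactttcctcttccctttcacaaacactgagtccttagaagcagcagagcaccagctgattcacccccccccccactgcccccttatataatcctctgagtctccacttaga
Ifit3b: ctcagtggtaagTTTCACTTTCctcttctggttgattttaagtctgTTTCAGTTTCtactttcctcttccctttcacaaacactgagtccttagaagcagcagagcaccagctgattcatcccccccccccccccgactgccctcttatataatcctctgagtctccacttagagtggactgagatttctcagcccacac
Oas1a: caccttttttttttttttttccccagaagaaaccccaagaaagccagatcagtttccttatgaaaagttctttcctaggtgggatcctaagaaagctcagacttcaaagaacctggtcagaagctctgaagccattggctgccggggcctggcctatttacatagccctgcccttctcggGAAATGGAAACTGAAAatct
Oas1g: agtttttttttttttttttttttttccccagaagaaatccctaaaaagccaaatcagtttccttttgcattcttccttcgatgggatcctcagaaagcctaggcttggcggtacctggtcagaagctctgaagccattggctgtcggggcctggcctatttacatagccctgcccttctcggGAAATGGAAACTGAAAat

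Isg15 held 3 cores in a row in 1 capitalised run, and the other 5 genes shown held 2 each. Bst2 and Gbp3, which are not shown, also held 2 each. In Oas1a and Oas1g the pair overlapped and ended within the last bases before the start site, whereas in the 3 IFIT genes the 2 cores stood apart and lay on the opposite strand. The stretches of Ifit3 and Ifit3b were identical at 82.1% of 168 aligned bases and those of Oas1a and Oas1g at 72.2% of 198, against 34.8% of 198 for Ifit1 and Ifit3 (aligned without gaps). Searched on both strands of the whole windows, the ISRE core (GAAA, any 2 bases, GAAA) was present in 16 of the 26 members (61.5%) and in 3.99% of 27025 genes in the same table. The GAS core (TTC, any 3 bases, GAA) was present in 6 of the 26 (23.1%) and in 9.55% of all genes. In Bst2 the matches to the 2 cores overlapped. The members with no ISRE core in the window were Cmpk2, Ifi35, Ifi44, Ifit2, Irf7, Irf9, Isg20, Oasl1, Oasl2 and Xaf1. A match describes the letters of the window and is not a measured binding site.

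**Figure D1:**
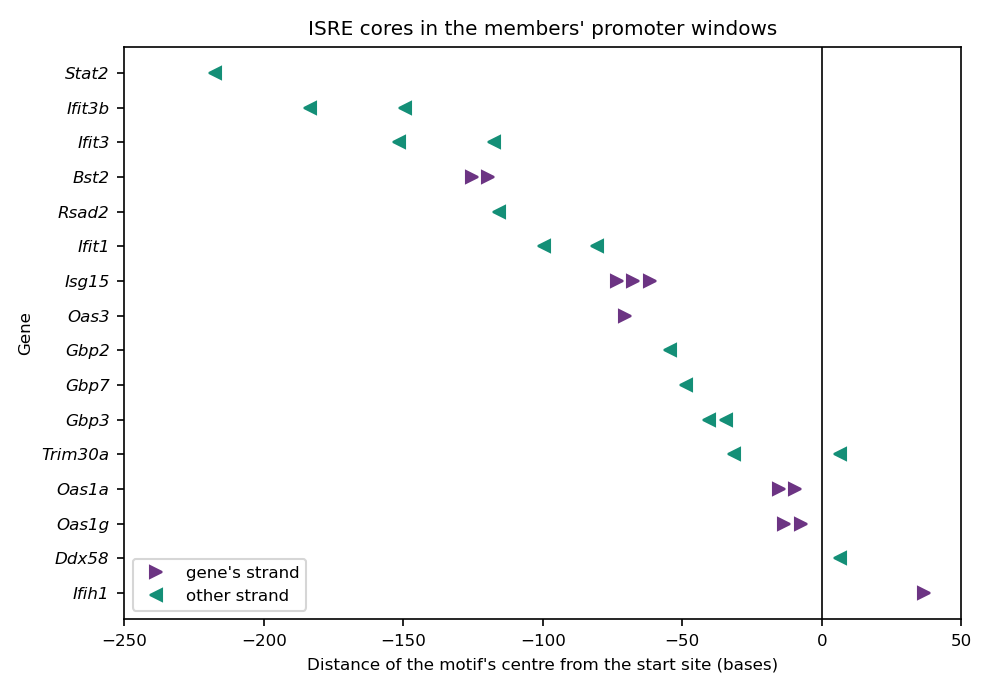
Position of each ISRE core in the promoter windows of the 16 members that held 1 or more. The horizontal axis is the distance in bases of the motif's centre from the start site, each line is a gene, arrowheads give the strand of the match relative to the gene, and Trim30a and Gbp3 have 2 windows each drawn on 1 line. Isg15 shows 3 cores side by side.

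Libraries held 21357424 to 28321294 estimated counts per mouse, and 24026 to 25135 genes had at least 1 count. Bpifb1 stood at 0.217 to 1.26 CPM (counts per 1000000 counts of the scaled library) in KO and 28.1 to 79.6 CPM in WT mice, so the genotype labels held. KO replicate 5 carries a female label but had 1.78 CPM of Xist, whereas the other 6 females measured 273.7 to 407 CPM. The mice labelled male measured 1.29 to 1.73 CPM, so its label may be wrong. The sex term and all groups by sex follow the labels and count this mouse as female. Counts over the members, the lists and the marker sums by genotype are therefore also given without it. Values of single genes and the marker sums by sex include it. Defining markers of 14 lung cell types were detected, and those of alveolar type 2 and club cells summed to the highest levels, as in the labelled tissue, lung. Over all genes, 4 of 18024 (0.0222%) passed between KO and WT in edgeR's quasi-likelihood fit with sex in the model, taking adjusted p below 0.05 as the threshold.

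None of the 35 members passed between KO and WT. The lowest adjusted p was 0.1933 (Ifi44), and in none did the CPM values of the 5 KO mice lie wholly apart from those of the 5 WT mice, against 0.96% of all genes with KO wholly above and 0.921% wholly below. At an unadjusted p under 0.05 there were 7 members with higher values in KO, where 8.92% of all genes lay, and 0 with lower values, where 8.04% lay. The 7 were Ddx58, Ifih1, Oas2, Oasl2, Ifi44, Parp14 and Trim30a. The log2 fold change was above 0 in 27 members (77.1%) and in 49.3% of all genes. Its median was 0.11 over the members, from -0.15 for Ifi27 to 0.36 for Ifi44, and -0.0027 over all genes. Without KO replicate 5 the count at an unadjusted p under 0.05 was 5 (where 6.92% of all genes lay) and the median 0.12, and 0 members passed. The count changed with single mice. It was 2 without KO replicate 2 and 2 without KO replicate 3. It was 4 without WT replicate 4 and 11 without KO replicate 1. The share of all genes at that p, in either direction, changed as well. That share was 17% with all mice, and 12.6%, 17.5%, 19.2% and 12.9% in those fits in turn. In RNA from whole lung, more cells of a type and more RNA per cell cannot be told apart.

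**Figure D2:**
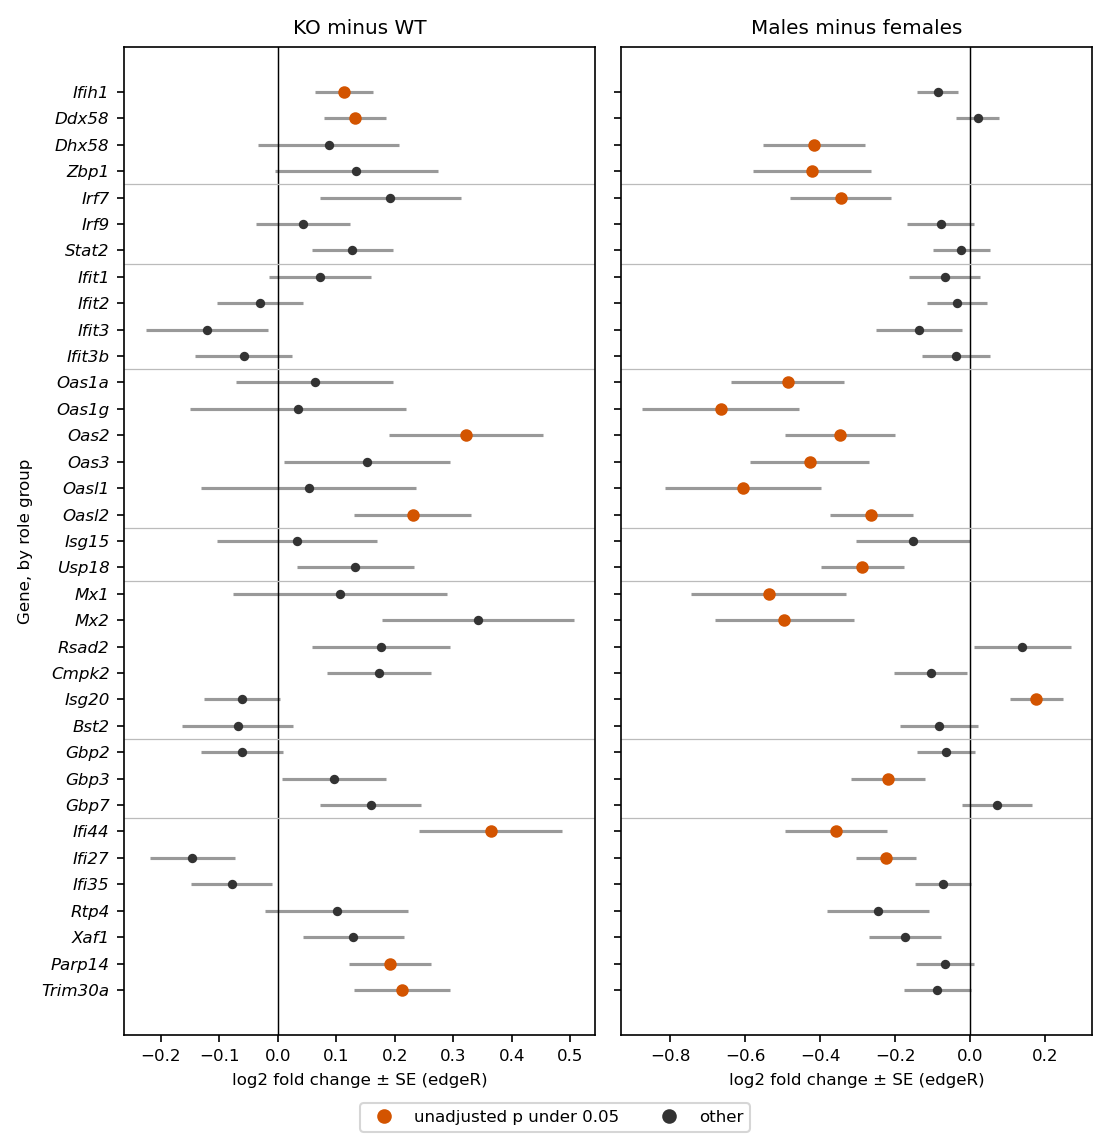
Log2 fold change of each member from the fit with genotype and sex, KO minus WT on the left and males minus females on the right, ordered by role, with bars of 1 SE and orange for an unadjusted p under 0.05. On the left 27 of 35 points lie above 0 and 7 are orange; on the right 31 of 35 lie below 0 and 16 are orange, among them all 6 OAS genes.

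Marker levels of other cells moved with these values in part. The summed level of 7 monocyte markers was 162.6 to 238.0 CPM in KO and 141.5 to 186.9 CPM in WT mice (exact permutation p 0.06349, two-sided), and it was highest in KO replicates 2 and 3. KO replicate 3 also held the highest value of 22 members and KO replicate 2 that of 6. WT replicate 1, with a monocyte sum of 186.9 CPM, held the highest value of 6 members as well. Without Nr4a1, an immediate-early gene among those markers, the ranges were 114.0 to 155.0 and 111.8 to 145.1 CPM (exact permutation p 0.9286), while Nr4a1 alone measured 40.6 to 89.9 CPM in KO and 27.2 to 41.9 CPM in WT (exact permutation p 0.01587). Alveolar type 2 markers summed to 23549.8 to 26766.4 CPM in KO and 24463.3 to 29064.7 CPM in WT (exact permutation p 0.0397). The largest parts were Sftpc (mean 14649 CPM, log2 fold change -0.18), Sftpb (4658 CPM, -0.17) and Sftpa1 (3466 CPM, -0.23). Napsa was lower as well (-0.25), while the log2 fold change was -0.04 for Slc34a2, 0.01 for Lamp3 and 0.06 for Abca3. The list for plasmacytoid dendritic cells, the strongest producers of type I interferon, summed to 40.9 to 49.5 and 37.4 to 58.0 CPM (exact permutation p 0.6667). That sum mainly follows 2 of its genes, Cox6a2 (mean 20.7 CPM) and Ly6d (17.7 CPM), and says little of the cells themselves. Siglech of the same list measured 2.84 to 3.99 CPM in KO and 2.69 to 4.19 CPM in WT. Without KO replicate 5 the exact permutation p was 0.0952 for the monocyte markers, 0.8571 without Nr4a1, 0.01587 for Nr4a1, 0.0714 for the alveolar type 2 markers and 0.7143 for the plasmacytoid dendritic cell markers. In all 14 marker lists 0 genes were at 0 in all mice. The part of these cells in the members' values was not tested.

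The first group comprises the sensors. RIG-I (Ddx58) and MDA5 (Ifih1) are helicases that recognise viral RNA in the cytoplasm, LGP2 (Dhx58) modulates them, and Zbp1 binds left-handed nucleic acid and can start cell death. Ddx58 measured 70.8, 74.7, 77.2, 68.6 and 69.4 CPM in KO replicates 1 to 5 and 64.2, 63.8, 71.2, 65.1 and 65.6 CPM in WT replicates 1 to 5. WT replicate 3 lay within the KO range and the other 4 WT mice lay below every KO mouse. The means were 72.1 ± 3.66 and 66.0 ± 3.02 CPM (SD, n = 5 each), the log2 fold change was 0.13 (SE 0.05) and the adjusted p 0.2386 by edgeR. Ifih1 measured 48.9, 52.1, 54.3, 50.9 and 48.6 CPM in KO against 49.2, 43.9, 45.6, 44.9 and 49.2 CPM in WT (log2 fold change 0.11, SE 0.05, adjusted p 0.2738 by edgeR). The 2 groups overlapped between 48.6 and 49.2 CPM. Dhx58 (7.20 to 14.2 CPM in KO, 8.64 to 10.8 in WT) and Zbp1 (8.90 to 14.2 and 7.39 to 13.6 CPM) spread more widely among mice of 1 genotype than between the genotypes. The median log2 fold change of the 4 sensors was 0.12, and 0 of 4 passed.

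Of the 3 transcription factors, Stat2 and Irf9 belong to the complex that binds the ISRE, and Irf7 drives the production of interferon-alpha and is itself strongly induced by it. Irf7 measured 22.6, 33.0, 43.4, 28.6 and 31.6 CPM in KO and 31.3, 24.3, 24.3, 25.5 and 26.2 CPM in WT replicates 1 to 5. KO replicate 3 was the highest of all 10 mice. KO replicate 1, the only KO mouse labelled male, was the lowest, so the KO range enclosed the WT range. KO exceeded WT by a log2 fold change of 0.19 (SE 0.12; 31.8 ± 7.61 against 26.3 ± 2.90 CPM, SD, n = 5 each; adjusted p 0.4411 by edgeR). Stat2 measured 67.0, 81.4, 79.8, 71.8 and 77.7 CPM in KO and 70.3, 74.5, 69.0, 70.1 and 60.8 CPM in WT (log2 fold change 0.13, SE 0.07, adjusted p 0.3645 by edgeR). Its 3 highest values were those of KO replicates 2, 3 and 5. Irf9 ranged from 59.2 to 82.8 CPM in KO and from 60.2 to 67.6 CPM in WT, with a log2 fold change of 0.04 (SE 0.08). None of the 3 passed.

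The IFIT proteins bind the 5′ ends of viral RNA and hold back its translation, and their genes lie side by side on chromosome 19 in the order Ifit2, Ifit3, Ifit3b and Ifit1. They formed 1 of the 8 role groups, and the only one with a median log2 fold change below 0 (-0.04, with 3 of 4 below 0; -0.01 with 2 of 4 above 0 when KO replicate 5 was left out). Ifit3, the most abundant, measured 58.7, 60.6, 81.8, 66.9 and 58.6 CPM in KO and 85.6, 66.6, 66.6, 66.1 and 63.3 CPM in WT. WT replicate 1 and KO replicate 3 stood above the other 8 mice, which lay between 58.6 and 66.9 CPM. The log2 fold change was -0.12 (SE 0.10; 65.3 ± 9.82 against 69.7 ± 9.04 CPM, SD, n = 5 each; adjusted p 0.5853 by edgeR). Ifit3b, which is transcribed from the near copy of that promoter shown above, was highest in WT replicate 1 as well (22.6 CPM, against 16.6 to 20.0 CPM in the other 9). Because 51.2% of the 50-base windows of Ifit3 also occur in Ifit3b, reads of the read length cannot separate the 2 genes fully and both values are uncertain. Ifit1 (log2 fold change 0.07, SE 0.09) and Ifit2 (-0.03, SE 0.07) differed between genotypes by less than their spread.

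The OAS family makes short oligoadenylates that activate RNase L, an enzyme that cuts viral and cellular RNA, although Oasl1 lacks that activity and acts on translation of Irf7. All 6 OAS genes had a log2 fold change above 0 (median 0.11), and 2 of the 6 had an unadjusted p under 0.05 (median 0.10 and 0 of 6 without KO replicate 5). Oas2 measured 7.76, 13.5, 12.8, 10.1 and 13.1 CPM in KO and 7.31, 7.67, 8.68, 10.7 and 8.87 CPM in WT. KO replicates 2, 3 and 5 exceeded every WT mouse, while KO replicate 1 lay among the lowest WT values. Its log2 fold change came to 0.32 (SE 0.13; 11.5 ± 2.46 against 8.65 ± 1.33 CPM, SD, n = 5 each; adjusted p 0.2444 by edgeR). Oasl2, the most abundant of the group, measured 40.5, 56.0, 66.7, 48.3 and 54.8 CPM in KO and 50.8, 38.6, 43.9, 43.2 and 41.1 CPM in WT (log2 fold change 0.23, SE 0.10, adjusted p 0.2759 by edgeR). Again KO replicates 2, 3 and 5 lay above all WT mice and KO replicate 1 lay among them. The log2 fold changes of the other 4 were 0.15 for Oas3, 0.06 for Oas1a, 0.05 for Oasl1 and 0.03 for Oas1g. Oas1a and Oas1g share 57.6% of the 50-base windows of Oas1a, so the split of reads between these 2 is uncertain.

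ISG15 is a ubiquitin-like protein that is attached to other proteins, and USP18 removes it and also shuts off signalling at the interferon receptor. Usp18 measured 14.5, 19.3, 26.0, 19.7 and 19.6 CPM in KO and 18.7, 15.7, 17.0, 17.5 and 17.4 CPM in WT. KO replicates 2 to 5 exceeded all WT mice and KO replicate 1 lay below them all. The genotypes differed by a log2 fold change of 0.13 (SE 0.10; 19.8 ± 4.07 against 17.3 ± 1.09 CPM, SD, n = 5 each; adjusted p 0.518 by edgeR). Isg15, the gene with 3 ISRE cores above, measured 9.13, 11.4, 15.5, 9.89 and 10.1 CPM in KO and 12.6, 9.72, 11.4, 9.47 and 10.2 CPM in WT, with a log2 fold change of 0.03 (SE 0.14). KO replicate 3 was highest for both genes.

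Among the 6 antiviral effectors, the Mx GTPases trap viral nucleocapsids, tetherin (Bst2) holds budding virus at the cell surface, viperin (Rsad2) and Cmpk2 act together to make a chain-terminating nucleotide, and Isg20 is an exonuclease. Mx2 measured 2.20, 3.84, 4.09, 2.52 and 3.60 CPM in KO and 2.41, 2.38, 1.69, 2.74 and 2.73 CPM in WT, again with KO replicates 2, 3 and 5 above all WT mice. Its log2 fold change was 0.34 (SE 0.16; 3.25 ± 0.838 against 2.39 ± 0.427 CPM, SD, n = 5 each; adjusted p 0.3063 by edgeR). Bst2 measured 59.3, 69.6, 79.1, 66.7 and 61.9 CPM in KO and 80.0, 78.0, 61.9, 63.0 and 65.6 CPM in WT (log2 fold change -0.07, SE 0.10, adjusted p 0.755 by edgeR). Here WT replicates 1 and 2 lay as high as KO replicate 3. Rsad2 and Cmpk2 are neighbours transcribed in opposite directions with 12751 bases between them, and they did not follow the same mice. Rsad2 was 13.6 CPM in KO replicate 3 and 18.2 CPM in KO replicate 2, whereas Cmpk2 was highest in KO replicate 3 (35.3 CPM). Their log2 fold changes were 0.18 (SE 0.12) and 0.17 (SE 0.09). Isg20 measured 39.2, 33.2, 35.7, 39.7 and 33.9 CPM in KO and 36.9, 45.8, 38.6, 35.2 and 37.8 CPM in WT (log2 fold change -0.06, SE 0.06), the reverse of the common order, with its lowest value in KO replicate 2. Mx1 had a log2 fold change of 0.11 (SE 0.18). C57BL/6 mice are known to carry a defective Mx1 allele, so its RNA does not stand for a working protein. GENCODE M21 classes Mx2 as a polymorphic pseudogene, so the RNA of Mx2 may not stand for a working protein either.

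The guanylate-binding proteins coat and rupture the vacuoles of intracellular microbes and respond to interferon-gamma more than to type I interferon. Gbp7, Gbp3 and Gbp2 follow each other on chromosome 3. Gbp2 measured 75.1, 76.9, 82.4, 79.3 and 67.9 CPM in KO and 91.4, 78.6, 73.5, 78.8 and 72.5 CPM in WT, and WT replicate 1 was the highest of the 10. Its log2 fold change was -0.06 (SE 0.07, adjusted p 0.6956 by edgeR) and became 0.01 without WT replicate 1. Gbp7 measured 64.3, 66.3, 66.5, 55.5 and 55.1 CPM in KO and 54.9, 53.8, 60.6, 62.7 and 46.5 CPM in WT, with KO replicates 1, 2 and 3 above all WT mice (log2 fold change 0.16, SE 0.09, adjusted p 0.3638 by edgeR). KO replicate 1, low in many members, was not low in Gbp7. A processed pseudogene, Gm43802, shares 10.5% of its windows.

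The last 7 members have varied roles. Ifi44 is a cytoplasmic protein of the antiviral state, Parp14 transfers ADP-ribose to proteins, Trim30a dampens Toll-like receptor signals, Xaf1 promotes apoptosis, Rtp4 carries receptors to the cell surface, and Ifi27 and Ifi35 are common markers of an interferon response. Ifi44 measured 7.83, 11.9, 13.6, 8.64 and 11.8 CPM in KO and 9.08, 6.39, 7.91, 8.17 and 7.98 CPM in WT. KO replicates 2, 3 and 5 exceeded every WT mouse, and KO replicates 1 and 4 lay within the WT range. The log2 fold change of 0.36 (SE 0.12; 10.7 ± 2.42 against 7.90 ± 0.969 CPM, SD, n = 5 each) was the largest of the members, with an edgeR adjusted p of 0.1933. Parp14, the most abundant member by CPM, measured 101, 118, 121, 107 and 115 CPM in KO and 95.3, 88.2, 108, 105 and 90.6 CPM in WT. Its 3 highest mice were those same 3 KO replicates, and KO replicates 1 and 4 lay between WT values (log2 fold change 0.19, SE 0.07, adjusted p 0.2102 by edgeR). Trim30a had a log2 fold change of 0.21 (SE 0.08, adjusted p 0.2287 by edgeR). Ifi27 had the lowest of the members, -0.15 (SE 0.07, adjusted p 0.3253 by edgeR), with 53.7 to 79.8 CPM in KO and 66.6 to 81.3 CPM in WT. The lowest value was that of KO replicate 1, and the other 4 KO mice lay between 66.0 and 79.8 CPM.

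**Figure D3:**
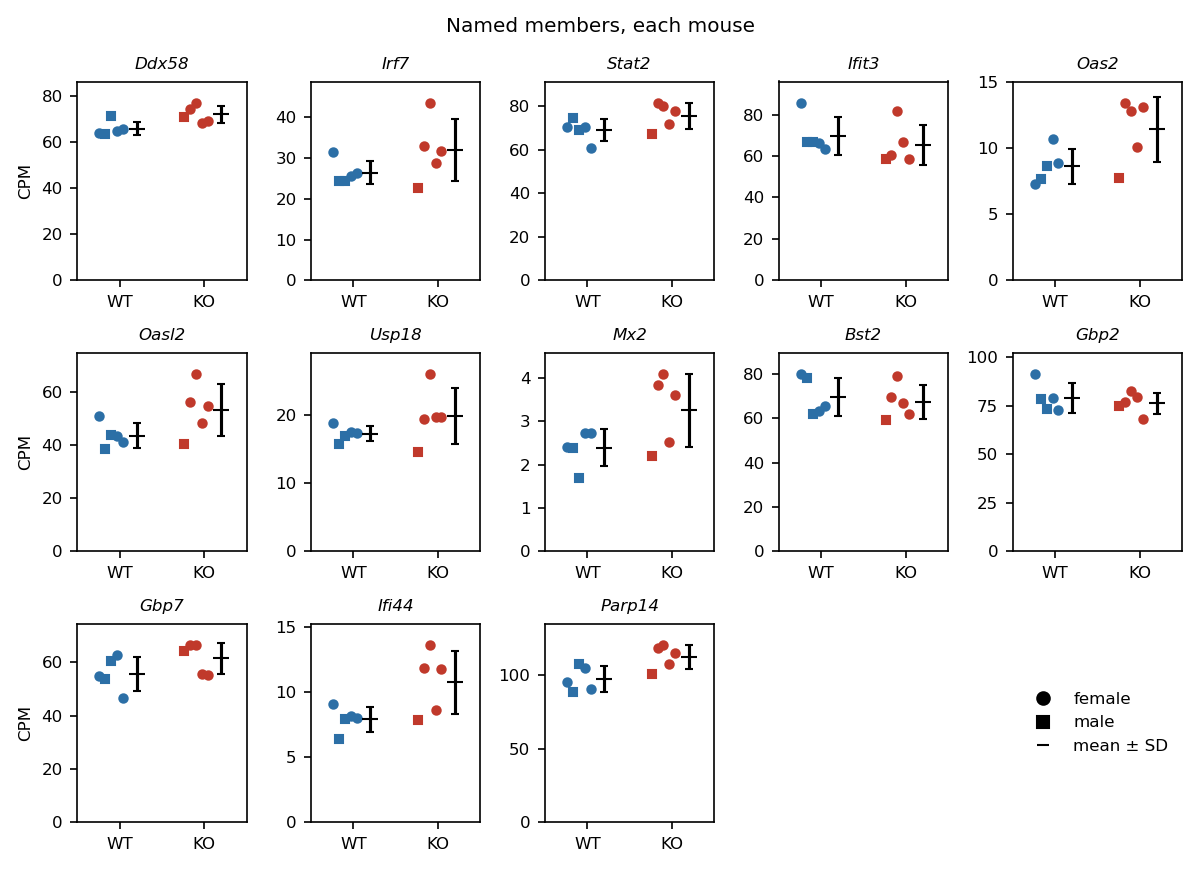
CPM per mouse of 13 members, those with the highest level or the smallest p in each role group and Irf7. Each panel is a gene with an axis from 0, circles are females, squares are males and dashes with bars are means ± SD over 5 mice. The KO mouse labelled male (square) lies at the low end of its group in Irf7, Oas2, Oasl2, Usp18, Mx2 and Ifi44, and the 2 groups overlap in each panel.

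Per kilobase of exon, levels differed far more between genes than between mice. Bst2 was highest at 75.9 CPM per kilobase, followed by Ifi27 (47.6), Ifit3 (38.7), Gbp2 (30.9), Ifi35 (28.7) and Isg20 (20.2). The lowest were Oas1g (0.908 CPM per kilobase), Mx2 (0.780), Mx1 (0.761) and Oas3 (0.694). The ratio of the highest to the lowest mouse was 2.77 for Oas1g, 2.50 for Oasl1, 2.42 for Mx2, 2.24 for Oas1a and 2.13 for Ifi44. At the other end it was 1.21 for Ddx58, 1.24 for Ifih1 and 1.24 for Ifit2. The 5 genes with the highest ratios were all among the lower ones per kilobase. Oas1g had 22 to 72 counts per mouse, Oasl1 50 to 131 and Mx2 42 to 104, against 1338 to 2020 for Ddx58. The part of counting error in these ratios was not tested.

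Read by mouse, the 35 genes fell into an order that crossed the genotypes. Relative to the mean of the 10 mice, the median member stood at 0.32 (log2) in KO replicate 3, with 32 of 35 members above the mean and 22 at their highest. KO replicate 2 stood at 0.19 (29 of 35 above the mean). At the other end were KO replicate 1 at -0.20, which held the lowest value of 13 members, and WT replicate 2 at -0.16, which held the lowest of 8. Both of these mice are males. WT replicate 1 and KO replicate 5 stood at 0.04 and 0.03, and the remaining 4 mice between -0.08 and -0.03. The median of all genes stayed between -0.0004 and 0.0081 in each mouse. The KO group thus held both the highest and the lowest mouse of the 10.

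**Figure D4:**
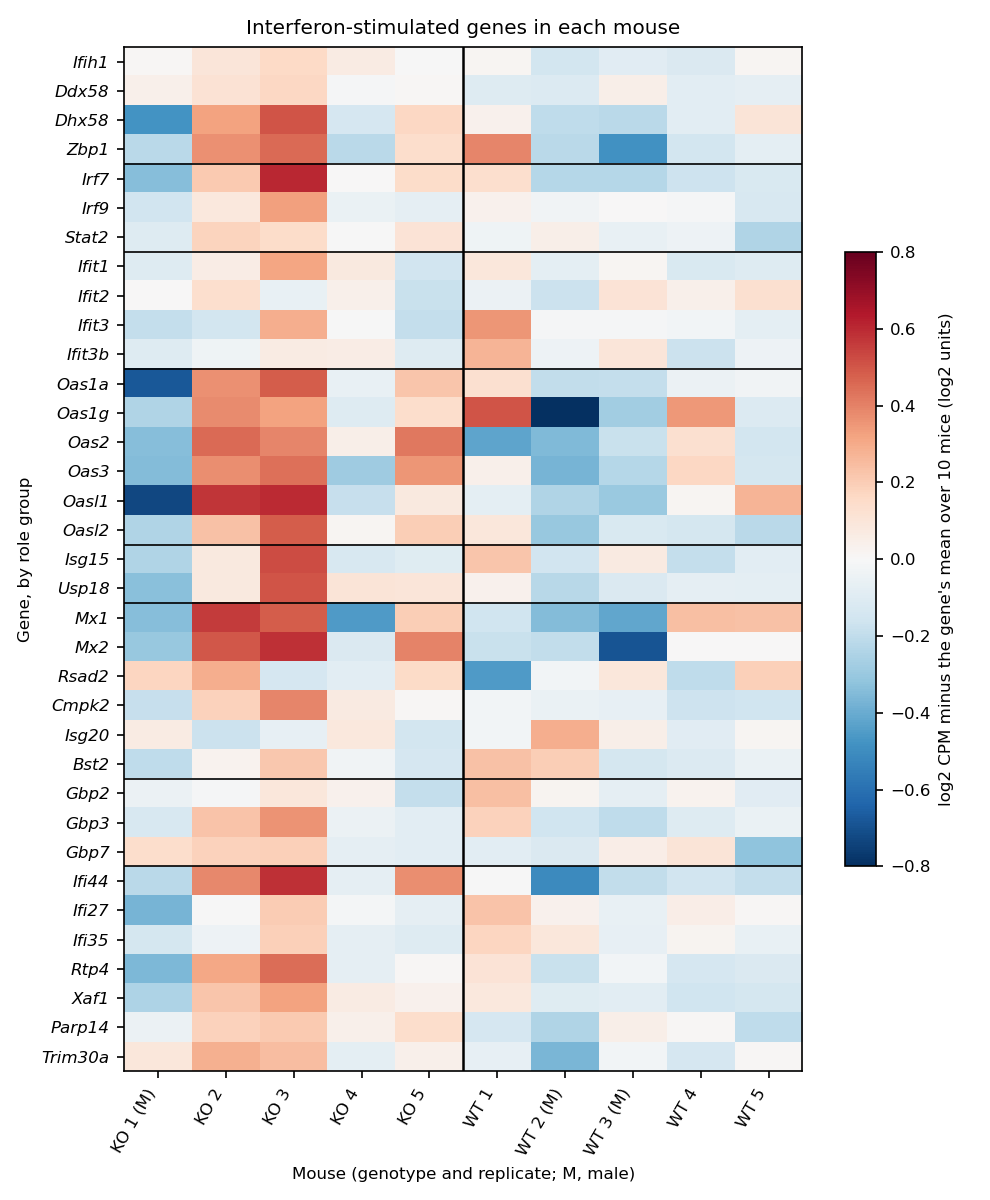
Level of the 35 members in each of the 10 mice, as log2 CPM minus the gene's mean over the mice. Each line of the map is a gene, ordered by role, each column is a mouse, KO then WT, and values beyond the colour scale take its end colour. KO replicate 3 is high in 32 of 35 genes and KO replicate 1 is low in most, and Isg20, Rsad2 and Ifit2 break the pattern.

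Males had lower values than females in most members. The sex coefficient was below 0 in 31 of 35 members and in 51.7% of all genes, with a median of -0.15 (log2) over the members and -0.0064 over all genes. At an unadjusted p under 0.05, 15 members were lower in males, where 7.79% of all genes lay, and 1 (Isg20) was higher, where 7.34% lay. None passed after adjustment in the same edgeR fit (105 genes, or 0.583%, passed over the whole table). The 15 included all 6 OAS genes. Oas1a had the lowest adjusted p, 0.1556, with a log2 difference of -0.49 (SE 0.15), and Oas1g followed with -0.67 (SE 0.21, adjusted p 0.1599 by edgeR). The count of 15 fell to 1 without KO replicate 1, the only KO mouse labelled male, and to 14 without KO replicate 5. The whole table changed as well: 0 genes passed between the sexes without KO replicate 1 and 93 without KO replicate 5. The share of all genes lower in males at the unadjusted p was not counted in these fits. Markers of immune cells were also lower in males in part. The 3 males had monocyte sums of 141.5 to 162.6 CPM and the 7 labelled females of 167.1 to 238.0 CPM (exact permutation p 0.0417). Without Nr4a1 these ranges overlapped, at 111.8 to 121.9 against 114.0 to 155.0 CPM (exact permutation p 0.075). The T cell sum was 55.4 to 68.8 CPM in males against 62.4 to 89.1 CPM in females (exact permutation p 0.0583). At an unadjusted p under 0.05, 5 of 7 T cell markers and 2 of 7 monocyte markers, Nr4a1 among them, were lower in males and 0 of either higher. Over all 84 markers 13 were lower and 9 higher. Alveolar type 1 markers went the other way, with 4610.8 to 5192.1 CPM in males and 4102.7 to 4604.5 CPM in females (exact permutation p 0.0083). So did ciliated markers, with 1977.1 to 2192.9 CPM in males and 1865.1 to 2067.4 CPM in females (exact permutation p 0.025). Neutrophil markers summed to 79.0 to 122.6 CPM in males and 87.8 to 108.6 CPM in females (exact permutation p 0.3167). The permutation p-values of the sums by sex count KO replicate 5 as female and were not repeated without it. In that mouse the monocyte sum was 194.3 CPM, the T cell sum 77.9 CPM and the alveolar type 1 sum 4268.45 CPM. These lay outside the ranges of the labelled males, while its ciliated sum of 1988.5 CPM lay within. The part of these cells in the sex difference was not tested.

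Across mice most members varied together. Over the 595 pairs of members the median Pearson r of log2 CPM was 0.534, from -0.883 (Oas1g and Isg20) to 0.963 (Dhx58 and Oas1a), and 83.7% of pairs were positive. The median over the 162423276 pairs of all tested genes was near 0. With genotype and sex removed the members' median r was 0.47, and among the 7 females it was 0.552 (0.584 in the 6 other than KO replicate 5). Leaving out 1 mouse gave 0.367 (without KO replicate 3) to 0.566. Within role groups the median r was 0.798 for the single pair Isg15 and Usp18, 0.737 for the OAS genes, 0.671 for the sensors, 0.659 for the transcription factors, 0.365 for the IFIT genes and 0.161 for the antiviral effectors. Within the effectors, Mx1 and Isg20 had an r of -0.756, Mx2 and Isg20 one of -0.623 and Bst2 and Rsad2 one of -0.557. Each genotype holds 5 mice, which are too few for an r of its own. The pairs share the same libraries, and the monocyte marker sum described above was highest in KO replicates 2 and 3. Without Nr4a1 that sum was 155.0 and 142.1 CPM in these mice. It was then 145.1, 138.5 and 139.9 CPM in WT replicates 1, 4 and 5. The part of the monocyte markers in the correlation was not tested.

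Irf7, as the induced regulator of the pathway, served as the reference for each of the other 34 members. Pearson's r with Irf7 was above 0 in 31 of 34, with a median of 0.716 over the members and 0.02 over all genes. Adjusted over the 18023 genes compared with Irf7, none passed, in Pearson's test or Spearman's (lowest adjusted p of a member 0.206 and 0.2929; permutation test, 100000 resamples; 0% of all genes passed). At an unadjusted permutation p under 0.05, 21 members had an r above 0, where 3.37% of all genes lay, and 0 had an r below 0. By Spearman's rho 17 members lay above 0 at that threshold, 16 of them in both, but the share of all genes was not counted for rho. Isg20 had a rho below 0 at that threshold (rho -0.66, unadjusted permutation p 0.0432). The highest were Oasl2 (r 0.96, rho 0.89), Usp18 (r 0.96, rho 0.89), Xaf1 (r 0.94, rho 0.85), Rtp4 (r 0.93, rho 0.87) and Dhx58 (r 0.91, rho 0.94), each with unadjusted permutation p-values of at most 0.0027 over 10 mice. Oasl2, Usp18 and Dhx58 stand for 3 roles, an OAS-like protein, a deconjugase and a sensor. At the other end were Ifit2 (r -0.16, rho -0.10), Rsad2 (r -0.22, rho -0.091) and Isg20 (r -0.55, rho -0.66).

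The 2 mice farthest from the median of Irf7 were KO replicates 3 and 1. Without them, over 8 mice, r of those 21 members ranged from 0.353 to 0.938, and 17 kept an r above 0.5. The share of all genes above that r was not counted. Irf9 (r 0.83 with all mice) was then at 0.35, Ifit1 (0.77) at 0.36, Isg15 (0.83) at 0.45 and Mx1 (0.65) at 0.48. Those 2 mice were the highest and the lowest of Irf7, so leaving them out narrows its range, which can by itself lower r. Without KO replicate 3 alone 14 members had an r above 0 at an unadjusted permutation p under 0.05, where 3.49% of all genes lay. With genotype and sex removed 18 did, where 5.76% lay, so the share of all genes was higher and the members' count lower than before. Without KO replicate 5 the count was 19 (3.05% of all genes). Of the 26 members with a promoter entry, the 16 with an ISRE core had a median r with Irf7 of 0.608, and 9 of the 10 without one, Irf7 itself being the other, had a median of 0.832.

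**Figure D5:**
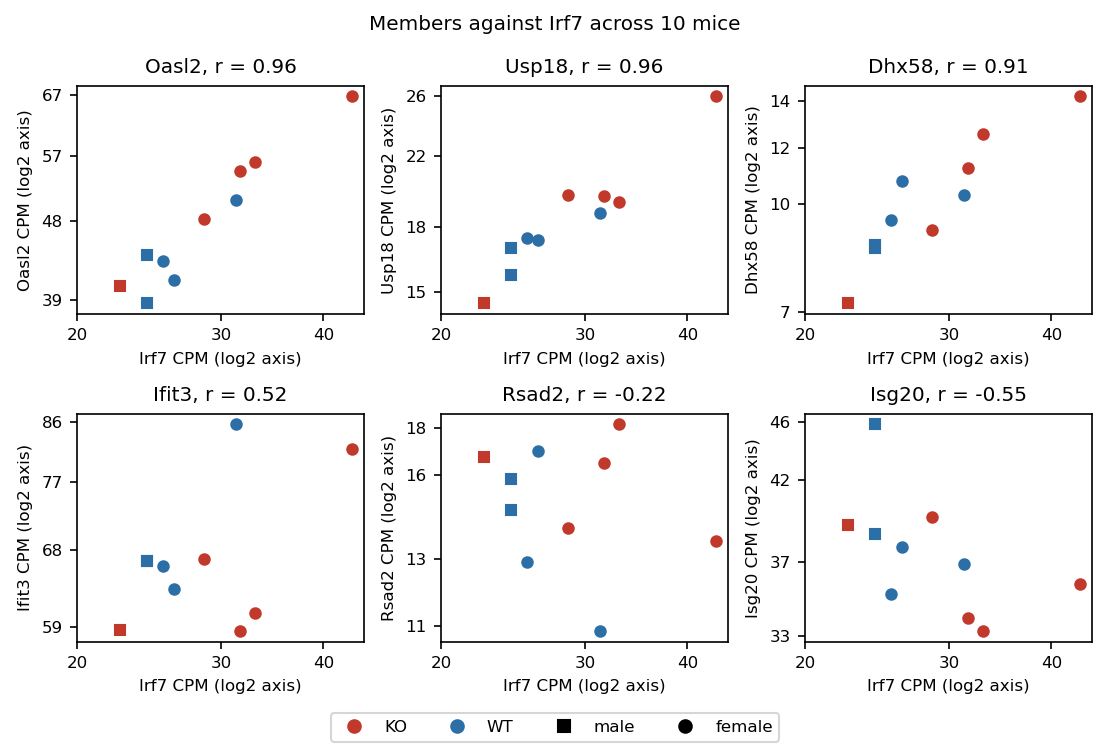
CPM of 6 members against CPM of Irf7 in the 10 mice, both on log2 axes, each point a mouse coloured by genotype with squares for males. Oasl2, Usp18 and Dhx58 climb with Irf7 from KO replicate 1 to KO replicate 3, Ifit3 is split by WT replicate 1, and Rsad2 and Isg20 show no rise.

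The rest of the pathway was read from lists of 132 further genes, 110 of them tested. None passed, and the median log2 fold change was -0.0013. At an unadjusted p under 0.05, 9 of the 110 were higher and 5 lower in KO, against 8.92% and 8.04% of all genes, so the higher ones were near the share over all genes. Without KO replicate 5 these counts were 8 and 4, and the median was 0.01. Of the 20 interferon genes, which make the ligands, 18 had 0 counts in all mice, Ifnk had 0 to 2 and Ifng 3 to 12 counts per mouse. None had enough counts to be tested, and 3 counts corresponded to 0.104 to 0.143 CPM. These ligands were thus at or near the limit of detection in both genotypes. The 6 receptor genes all had a log2 fold change below 0 with a median of -0.03 and none under an unadjusted p of 0.05. The lowest p among them was that of the interferon-gamma receptor chain Ifngr1 (180.1 ± 4.80 CPM in KO, 194.4 ± 15.1 CPM in WT, SD, n = 5 each; log2 fold change -0.11, adjusted p 0.3486 by edgeR).

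Of the 12 JAK-STAT signalling and feedback genes 7 lay above 0, and the smallest p was that of the corepressor Irf2bp2 (log2 fold change 0.18, adjusted p 0.3509 by edgeR). Of the 20 genes for sensing and induction of interferon 10 lay above 0, with 2 higher and 1 lower in KO at an unadjusted p under 0.05. Traf3, an adaptor between the sensors and the kinases of IRF3 and IRF7, averaged 47.4 ± 2.14 CPM in KO against 41.7 ± 3.67 CPM in WT (SD, n = 5 each; log2 fold change 0.20, SE 0.06, adjusted p 0.1679 by edgeR). In the 45 tested of 47 further type I interferon-induced genes, 26 lay above 0, with 5 higher and 2 lower at an unadjusted p under 0.05. Their median log2 fold change of 0.03 was below the 0.11 of the members.

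Eif2ak2 of that list, which encodes the RNA-activated kinase PKR, measured 30.1, 34.1, 31.3, 31.3 and 31.8 CPM in KO and 24.96, 22.3, 27.2, 26.7 and 26.7 CPM in WT. All 5 KO mice lay above all 5 WT mice, which none of the 35 members showed. The log2 fold change was 0.29 (SE 0.06; 31.7 ± 1.48 against 25.5 ± 2.02 CPM, SD, n = 5 each). The adjusted p was 0.0999 by edgeR's quasi-likelihood test and 0.007879 by the DESeq2 Wald test, which called 346 genes (1.92%), and it ran from 0.007879 to 0.2781 over the alternatives. Gbp9 of the 27 interferon-gamma-induced genes also had ranges that did not overlap, with 62.6, 79.2, 74.5, 64.7 and 64.6 CPM in KO and 56.3, 53.4, 62.3, 58.9 and 56.7 CPM in WT (log2 fold change 0.25, SE 0.07, adjusted p 0.1514 by edgeR). Gbp9 is a guanylate-binding protein like Gbp2, Gbp3 and Gbp7, the 3 members of its kind. In this list 11 of 27 lay above 0, with 2 higher and 2 lower at an unadjusted p under 0.05. Over the 110 tested genes, 2 had wholly higher KO values and 0 wholly lower ones, against 0.96% and 0.921% of all genes.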

How the data were processed

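RNA of the right middle lung lobe of 10 mice was measured. The authors deposited 1 table of estimated counts per Ensembl gene, not scaled between samples; all 10 columns were matched to the labels and 0 were left without a sample. Per the labels' protocols, libraries were made with a KAPA stranded mRNA kit and read as single reads of 50 bases. STAR 2.6.0, Salmon 0.9.1, FastQC and MultiQC are named, with builds mm10 and GRCm38, per the submitters' processing notes, which give no roles; whether counting used strand is not given in the sources used here. Values above 0 were not whole in 30.1% (tolerance 0.01), so reads were shared out among like sequences, and genes with a near copy or an overlapping partner are uncertain (Dhx58, Irf7, Irf9, Oas2, Oasl1, Usp18, Gbp2, Gbp7, Ifi35, Rtp4 and Trim30a overlap another gene).

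Counts were rounded. GENCODE M21 gave symbols, coordinates and exon lengths (47281 of 47333 identifiers matched; the other 52 held 0.0067% of counts). The comparison of KO with WT used edgeR 4.0.16 in R 4.3.3 (TMM scaling, filterByExpr by genotype with a minimum count of 10 and minimum total of 15, robust quasi-likelihood fit, sex as covariate, Benjamini-Hochberg adjustment over all 18024 genes tested, threshold 0.05); males and females were compared by the sex term of that model. The biological coefficient of variation was 9.69%. CPM values use TMM-scaled totals; 3 counts, taken as the smallest detected signal, equalled 0.104 to 0.143 CPM, which covers counting error only. Correlations used log2 CPM with a prior count of 2. Their p-values come from 100000 resamples (smallest possible 1e-05), or from all orders for fewer than 10 mice, and are adjusted over the 18023 genes compared with Irf7. The plan had named adjustment over the 34 members; this was replaced after those values were seen, since the members were not chosen independently, and part of the relations had passed under it. Replicates differed by 2.51 to 6.51 times the sampling noise, so no 2 libraries were the same. Scripts were tested on simulated data. All tests were two-sided. With 1 KO mouse labelled male, no interaction of genotype and sex was fitted.

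Members, role groups, pathway and marker lists were chosen with earlier results of these data known. Mb21d1 was read as Cgas, and Mnda, the same gene as Ifi211, was counted once. Named were, per role group, the member with the highest mean CPM and the one with the smallest p, any member that passed or did not overlap, Irf7, and per pathway list the gene with the smallest p and any that passed; other members were named after their values were seen. Alternatives were DESeq2 1.42.0 (Wald test and size factors), limma 3.58.1 (voom), no filter, a mean CPM of at least 1, no robust dispersion, no sex covariate, females alone, leaving out each mouse, a prior count of 0.5, residuals and 1 strand for motifs. Females alone (with and without KO replicate 5) for correlations, lists and marker sums without KO replicate 5, the monocyte list without Nr4a1, and the alternatives for pathway genes and for sex were chosen after seeing the data.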

Additional observations from a re-analysis of the deposited data

Results flagged for a closer look

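Within a genotype, the highest or lowest mouse was set against its nearest neighbour by Dixon's test. Of 70 sets of 5 mice (35 members in 2 genotypes), 5 held a mouse that stood apart, where chance gives about 1 in 20, or 3.5. For 3 genes it was the same mouse, WT replicate 1: Irf7 at 31.318 CPM against 24.343 to 26.243 CPM in the other 4 WT mice, Ifit3 at 85.647 CPM against 63.33 to 66.643 CPM, and Xaf1 at 24.873 CPM against 21.065 to 22.134 CPM. Ddx58 was 71.222 CPM in WT replicate 3 and 63.755 to 65.643 CPM in the other WT mice. Ifi35 was 56.335 CPM in KO replicate 3 and 44.88 to 47.969 CPM in the other KO mice.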

How the results depend on the processing

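No member passed between KO and WT or between the sexes, and no relation with Irf7 passed, under any alternative run (18 for the KO against WT fit, 15 for each relation). The number of all genes called was 4, but 50 without the filter, 346 by the DESeq2 Wald test, 2 by limma-voom and 2 to 18 with 1 mouse left out. Members higher in KO at an unadjusted p under 0.05 numbered 7, and 2 to 11 with 1 mouse left out; lower ones numbered 0, but 1 without the filter and 0 to 2 with 1 mouse left out. Genes at that p in either direction made up 17% of all genes, and 10.3% to 19.2% with 1 mouse left out. Members lower in males numbered 15, and 1 to 15 with 1 mouse left out, where the share of all genes was not counted. Members with an r above 0 with Irf7 at that p numbered 21, and 14 to 22 with 1 mouse left out. The share of all genes was 3.37%, and 2.48% to 3.92% with 1 mouse left out. The median r of member pairs was 0.534, and 0.584 in the 6 females other than KO replicate 5. The members' median log2 fold change was 0.11, and 0.04 to 0.16 with 1 mouse left out. With 1 mouse left out, the log2 fold change of Gbp2 ran from -0.1073 to 0.00571 (without WT replicate 1), and the r of Gbp7 with Irf7 from -0.0412 (without KO replicate 3) to 0.4767. The ISRE core was in 23.1% of members, and 2.06% of all genes, on the gene's strand alone. The cause of these changes was not tested, apart from the fewer mice or the strand itself. No paired analysis was possible because the replicate numbers are those of accession order and link no mouse to another. The number of mice, 5 a genotype, limits what could pass, and Oas1g, Mx1, Mx2 and Oasl1, with the fewest counts, had the largest standard errors.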
